A study of Homo sapiens with 9 samples.

Results

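The 36 genes described here encode proteins of homologous recombination, of the Fanconi anemia pathway that joins it at crosslinked DNA, and of mismatch repair. They were taken by symbol from the 60591 rows of the count table, and all 36 were found. They fall into 8 roles, namely the BRCA complex and its loader (5 genes), recombinase paralogs (5), strand exchange and annealing factors (4), the Fanconi anemia pathway (9), end resection (6), junction dissolution (3), damage kinases (2) and mismatch repair (2).

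Homologous recombination mends a double-strand break by trimming its ends to single strands, coating them with a recombinase and copying the lost sequence from the sister chromatid, so it is used mainly in S and G2 phase. The Fanconi anemia proteins recognise a crosslink that stalls a replication fork and hand the resulting break to the same machinery. Mismatch repair finds bases that the replicative polymerases paired wrongly, and its loss leaves colorectal tumours with unstable microsatellites.

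Messenger RNA was sequenced from undifferentiated Caco-2 cells (uCaco-2), a human colorectal adenocarcinoma line that is studied as a model of intestinal epithelium. Cells were kept for 24 h in fresh medium (Control), with 300 μM CoCl2 or with 5 μM of the oxyquinoline derivative 4896-3212 (OD), and all 3 groups received 0.5% DMSO. Both compounds are used to activate the hypoxia-inducible factor (HIF) pathway in normal oxygen. Each group had 3 libraries, which the methods describe as biological replicates, and the p-values measure the spread between them.

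The libraries held 15998136 to 24209427 counts, and the 36 genes together took 1595 to 1678 counts per 1000000 of the library total (CPM) in control cells, 654 to 686 with CoCl2 and 1521 to 1576 with OD. Levels below are CPM scaled by TMM factors, which correct for a few abundant genes taking a larger share of a library. These factors were 1.11 to 1.12 in control libraries, 0.77 to 0.795 with CoCl2 and 1.14 to 1.15 with OD. The summed level of 10 intestinal epithelial markers was 11200 to 11700 CPM in control cells, 13500 to 14500 with CoCl2 and 10600 to 11200 with OD, while under library size alone, without the factors, it was 12500 to 13100, 10700 to 11400 and 12200 to 12700 CPM. The keratin genes KRT8 and KRT18 made up most of the sum. Of 9 tested markers 2 were called lower with CoCl2, VIL1 (log2 fold change -2.45) and KRT20 (-1.44). This was 22.2%, against 23.4% of all tested genes. By adjusted p 7 of the 9 were higher (77.8%, against 40.4% of all tested genes). The median log2 fold change of the 9 was 0.28, or -0.22 under library size alone. Of these markers, the homeobox gene CDX1 had 0 counts in every library. The 8 markers of blood, stromal, endothelial and muscle cells summed to 16.2 to 19.6 CPM in control cells, 12.1 to 13.5 with CoCl2 and 24.5 to 25.7 with OD, and PTPRC and COL1A2 had 0 counts in every control library. The samples were a cultured cell line, so these values are levels in that line. Why they differed between groups was not tested. Scaling by library size alone, in place of TMM, moved the median log2 fold change of all tested genes with CoCl2 from -0.05 to -0.55, so directions of small CoCl2 changes depend on it, and those that flip are marked.

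Promoter sequences were read from the RefSeq table (build GRCh38.p14, 250 bases before to 50 after the start), which held 31 of the 36 genes. The letters bound by E2F factors, which drive many S phase genes, were searched on both strands as TTTCCCGC, TTTGGCGC, TTTCGCGC or TTTGCCGC. They stood in 7 of the 31 promoters (22.6%), against 5.23% of 10907 promoters of tested genes and 3.33% of all 27305. None of the 8 matches shared a base with a match of the other motifs searched. All 8 are shown because E2F factors tie such genes to S phase, and each line gives the sequence on the strand of the gene with the match in capitals.
XRCC2, chr7:152676102-152676131, minus strand: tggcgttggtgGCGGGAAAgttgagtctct
EXO1, chr1:241848197-241848226, plus strand: aaaggtcagccTTTCGCGCgctgtgtaggc
FANCD2, chr3:10026424-10026453, plus strand: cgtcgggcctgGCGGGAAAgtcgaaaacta
MSH6, chr2:47783137-47783166, plus strand: ctccccccagaTTTCCCGCcagcaggagcc
FANCA, chr16:89816786-89816845, minus strand: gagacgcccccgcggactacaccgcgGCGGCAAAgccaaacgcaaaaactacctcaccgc
FANCC, chr9:95317848-95317907, minus strand: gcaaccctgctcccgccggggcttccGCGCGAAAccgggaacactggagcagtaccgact
FANCC, chr9:95317722-95317781, minus strand: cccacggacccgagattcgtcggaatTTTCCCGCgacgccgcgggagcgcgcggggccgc
PMS2, chr7:6009116-6009175, minus strand: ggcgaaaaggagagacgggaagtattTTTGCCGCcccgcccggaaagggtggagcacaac

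In XRCC2, EXO1 and MSH6 the match lay after the start (positions 22, 5 and 4), in FANCD2 it crossed the start, and in FANCA, FANCC and PMS2 it lay before it. The core letters of the hypoxia response element (ACGTG or GCGTG) stood in 25 of the 31 promoters (80.6%), against 62.5% of the promoters of tested genes. For CCAAT the shares were 45.2% and 36.6%, and for the CHR letters (TTTGAA or TTCGAA) 9.68% and 11.3%, both strands searched in each case. The hypoxia response letters of ATR, the 1 gene called with both treatments, are shown in capitals.
ATR, chr3:142578892-142578951, minus strand: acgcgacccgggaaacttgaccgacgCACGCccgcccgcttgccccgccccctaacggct
ATR, chr3:142578717-142578746, minus strand: aacccgcgttgGCGTGgttgactagtgcct

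Heat shock elements were in none of the 31 promoters and in 0.284% of the promoters of tested genes. A match is a run of letters and not a bound site.

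With CoCl2 most of these genes had lower mRNA, while with OD the changes of most were small and went both ways. A gene was called when its adjusted p was under 0.05 and its log2 fold change exceeded 1 in size (edgeR's quasi-likelihood test, Benjamini-Hochberg adjustment over 15944 tested genes). All 36 genes passed the expression filter. With CoCl2, 15 of the 36 were called lower (41.7%) and 0 higher, against 23.4% and 19.9% of all tested genes. By adjusted p alone 33 were lower and 1 higher, against 42.8% and 40.4%. The 3 CoCl2 libraries lay below all 3 control libraries for 31 genes, where 42.9% of all tested genes did. The median log2 fold change of the 36 was -0.90, and that of all tested genes was -0.05. In bulk RNA, fewer cells that express a gene and less of its RNA per cell cannot be told apart.

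With OD, 1 of the 36 was called lower and 0 higher, against 4.16% and 9.09% of all tested genes. By adjusted p alone 16 were lower and 8 higher, against 33.3% and 32.3%. The libraries did not overlap for 15 genes that were lower and 8 that were higher (34.3% and 33.7% of all tested genes). The median log2 fold change was -0.08, beside -0.01 for all tested genes. The called share (2.78% lower) was thus near that among all genes.

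**Figure D1:**
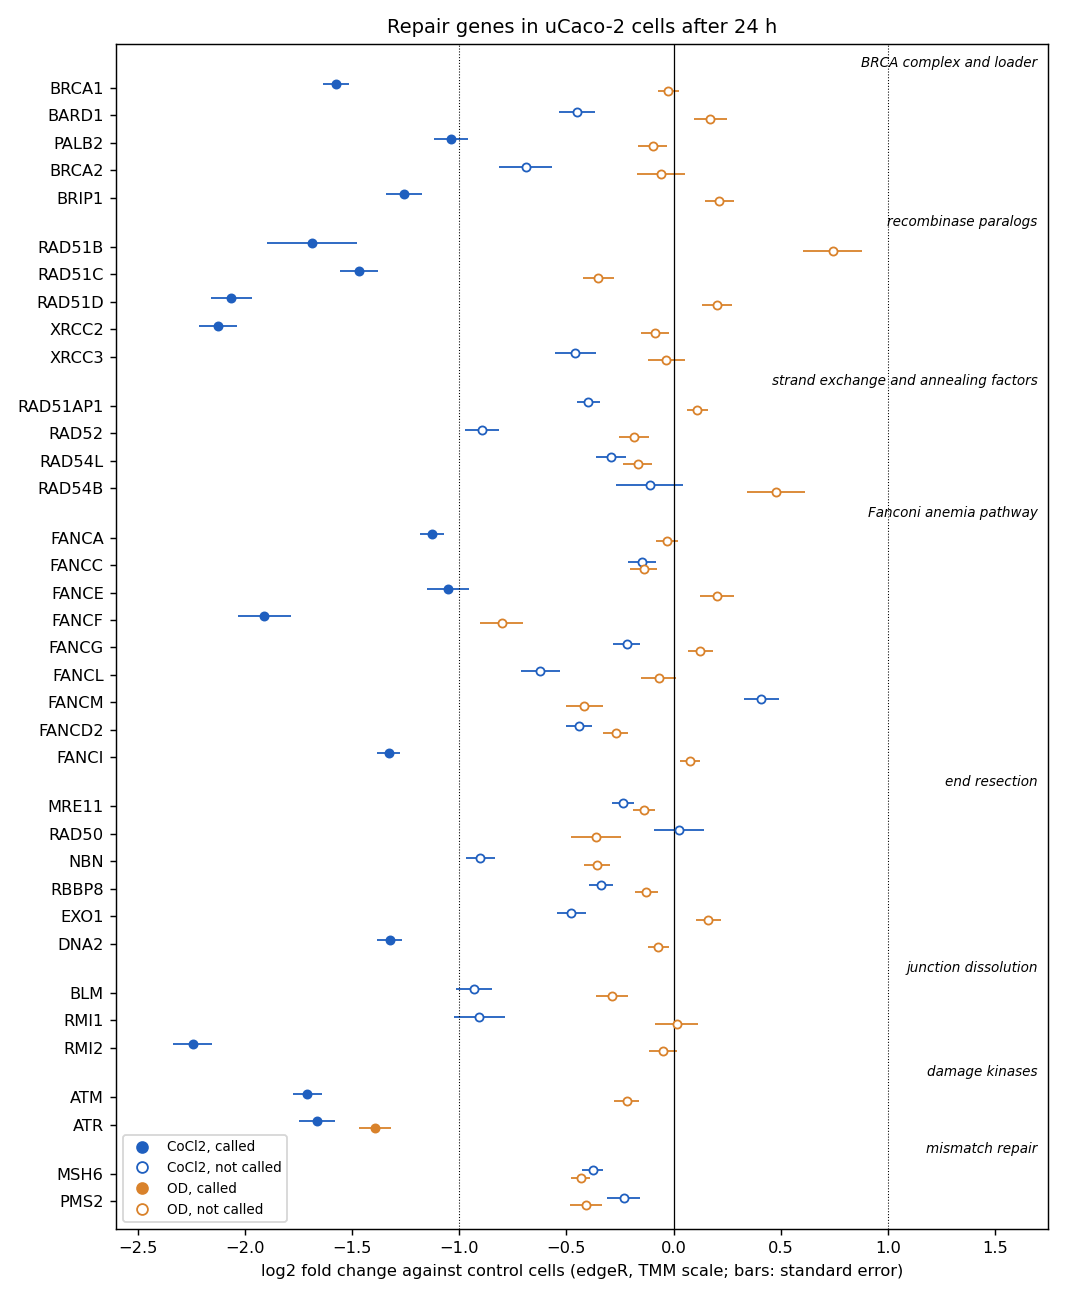
Fitted log2 fold change (x axis) of each of the 36 genes against control cells with CoCl2 (blue) and OD (orange), ordered by role; bars are standard errors, filled points were called, and dotted lines mark a log2 fold change of 1 in either direction. The blue points reach -2.24 (RMI2) and 15 are filled, and the 1 filled orange point is ATR at -1.39.

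**Figure D2:**
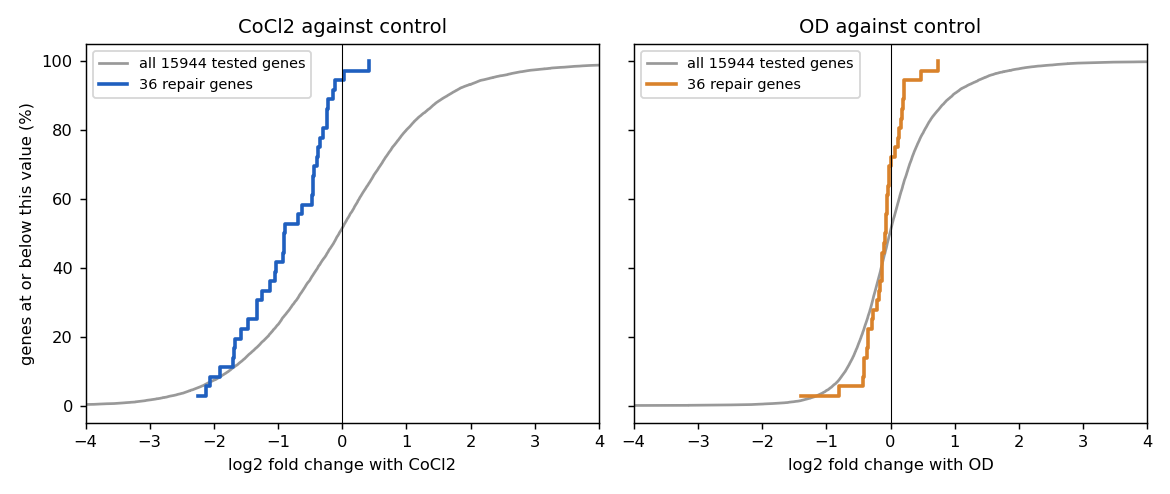
Cumulative share of genes (y axis, percent) at or below each log2 fold change (x axis) for the 36 repair genes and for all 15944 tested genes, with CoCl2 at the left and OD at the right. With CoCl2 the curve of the repair genes lies to the left of that of all genes over most of its range (medians -0.90 and -0.05), and with OD the medians are -0.08 and -0.01.

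Per length of the canonical transcript, MSH6 had the highest control level of the list at 33.1 ± 0.11 RPKM (CPM divided by the length in kilobases, SD, n = 3), and the libraries of RAD51AP1 (32.8 ± 0.72) overlapped with it. FANCI followed at 23.8 ± 1.16 RPKM. The lowest levels were those of RAD50 (1.01 ± 0.12 RPKM), RAD54B (1.43 ± 0.11) and FANCM (2.27 ± 0.16). RAD50 and RAD54B share 76.9% and 66.0% of their exonic bases with another gene on the same strand. Their levels and ranks thus depend on how shared reads were counted, which is not given in the sources used here. ATM and ATR, whose proteins are large kinases, stood at 5.15 ± 0.57 and 3.79 ± 0.14 RPKM.

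Among the BRCA complex and its loader, 3 of 5 genes were called lower with CoCl2 and all 5 were lower by adjusted p. BRCA1, which with its partner BARD1 forms a ubiquitin ligase that promotes end resection and recombinase loading (chr17:43044295-43170245, minus strand, GRCh38), was 69.4, 72.1 and 70.3 CPM in control libraries, 22.7, 24.4 and 24.1 with CoCl2 and 67.9, 70.0 and 70.7 with OD. The CoCl2 libraries thus stood far below the others, and those of control and OD overlapped. Its log2 fold change was -1.58 (SE 0.060, adjusted p = 4.82e-34, edgeR) with CoCl2 and -0.02 (SE 0.050, adjusted p = 0.698) with OD. BARD1 was 18.8, 20.2 and 17.6 CPM in control, 13.1, 15.5 and 13.3 with CoCl2 and 22.3, 21.2 and 20.3 with OD. Its 3 groups did not overlap, with CoCl2 lowest (log2 fold change -0.45, adjusted p = 2.95e-06) and OD highest (0.17, adjusted p = 0.0409). BRIP1, a helicase that binds BRCA1, was 24.6, 27.9 and 25.2 CPM in control, 11, 10.4 and 11.1 with CoCl2 and 29.3, 29.2 and 31.8 with OD. It had the same order of groups as BARD1, at -1.26 and 0.21 on the log2 scale. PALB2, which bridges BRCA1 and BRCA2, was called at -1.04 (SE 0.079) with CoCl2, just past the threshold. Its call was lost without CoCl2 replicate 3 (-0.999) and in edgeR with RLE factors, the kind that DESeq2 uses (-0.99). Under DESeq2 itself the call was kept. BRCA2, the loader of the recombinase, had a log2 fold change of -0.69 (SE 0.12, adjusted p = 0.000459) with CoCl2 and -0.06 (adjusted p = 0.676) with OD.

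The recombinase paralogs, which help to load and hold the recombinase on single strands, had 4 of 5 genes called lower with CoCl2 and a median log2 fold change of -1.69, as low as that of the damage kinases (-1.69). XRCC2 was 31.6, 33.1 and 33.4 CPM in control, 7.15, 8.98 and 6.71 with CoCl2 and 29.6, 31.0 and 31.8 with OD. RAD51D, its binding partner, was 27.0, 25.6 and 24.5 CPM in control, 5.29, 5.65 and 7.24 with CoCl2 and 28.8, 29.6 and 30.6 with OD. RAD51B was 3.77, 3.24 and 4.15 CPM in control, 0.93, 1.24 and 1.26 with CoCl2 and 6.81, 5.37 and 6.44 with OD. In all 3 genes the CoCl2 libraries were the lowest, and for RAD51D and RAD51B the OD libraries were above every control library. The log2 fold changes with CoCl2 were -2.13 (SE 0.087) for XRCC2, -2.07 (SE 0.095) for RAD51D and -1.69 (SE 0.21, adjusted p = 7.26e-11) for RAD51B. With OD they were -0.09 (adjusted p = 0.236), 0.20 (adjusted p = 0.00859) and 0.74 (SE 0.14, adjusted p = 3.13e-06). RAD51C, shared by both paralog complexes, was called at -1.47 with CoCl2 and was lower by -0.35 with OD (adjusted p = 2.47e-05), so with OD it moved against RAD51B, its partner in one complex. XRCC3 was lower at -0.46 with CoCl2 and stood at -0.03 (adjusted p = 0.740) with OD. Of its exonic bases 76.7% overlap KLC1 on the other strand, and its values are uncertain because the counting of strand is not given in the sources used here.

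None of the 4 strand exchange and annealing factors was called in either comparison with control cells. RAD51AP1, which stimulates pairing of the invading strand, was 70.6, 67.6 and 69.3 CPM in control, 51.6, 50.5 and 54.9 with CoCl2 and 74.6, 74.4 and 75.1 with OD. The groups did not overlap, although the OD rise was small (log2 fold change 0.11, SE 0.050, adjusted p = 0.0452) beside the fall with CoCl2 (-0.40, SE 0.053, adjusted p = 6.29e-10). RAD52, an annealing protein, was at -0.89 with CoCl2 (adjusted p = 7.39e-16) and -0.19 with OD (adjusted p = 0.0187). The DNA translocase RAD54L was at -0.29 and -0.17, both past the adjusted p. Its relative RAD54B was at -0.11 (95% interval -0.42 to 0.20) with CoCl2 and 0.48 (0.21 to 0.75) with OD. RAD54B shares 66.0% of its exonic bases with FSBP on the same strand, so its counts may mix both genes.

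Of the 9 Fanconi anemia genes, 4 were called lower with CoCl2. FANCF, an adaptor of the core complex (chr11:22622533-22625823, minus strand, GRCh38), was 14.0, 16.5 and 13.5 CPM in control, 3.11, 5.11 and 3.78 with CoCl2 and 8.90, 7.95 and 8.52 with OD. All treated libraries lay below the controls, and those with CoCl2 were the lowest. Its log2 fold changes were -1.91 (SE 0.12, adjusted p = 3.40e-22) and -0.80 (SE 0.099, adjusted p = 1.46e-10). FANCE, another core complex subunit, was 17.8, 18.2 and 15.6 CPM in control, 7.28, 8.44 and 9.12 with CoCl2 and 20.0, 19.4 and 20.2 with OD. It was thus lower with CoCl2 (-1.05, SE 0.096) and higher with OD (0.20, adjusted p = 0.0196), and its CoCl2 call was lost without CoCl2 replicate 1 (-0.96, adjusted p = 1.5e-12). FANCM, the translocase that anchors the core complex to DNA (chr14:45135930-45200890, plus strand, GRCh38), was 16.6, 17.0 and 14.9 CPM in control, 21.6, 22.4 and 20.8 with CoCl2 and 10.9, 12.6 and 13 with OD. It was the only one of the 36 genes that was higher with CoCl2 by adjusted p (0.41, SE 0.081, adjusted p = 6.43e-06), and it was lower with OD (-0.42, SE 0.085, adjusted p = 1.93e-05), but under library size alone its CoCl2 value was -0.10.

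FANCI and FANCD2 form the clamp that is ubiquitinated at crosslinks. FANCI was 112.4 ± 5.5 CPM in control, 44.8 ± 2.0 with CoCl2 and 118.7 ± 3.3 with OD (SD, n = 3). FANCD2 was 50.4 ± 4.5, 37.0 ± 2.1 and 41.8 ± 2.2 CPM in the same order. FANCI was called with CoCl2 (-1.33, SE 0.053) and stood at 0.08 with OD (adjusted p = 0.141), while FANCD2 was lower with both (-0.44 and -0.27, adjusted p = 4.05e-09 and 6.77e-05) without passing the fold threshold. Of the remaining core genes, FANCA was called with CoCl2 (-1.13, SE 0.056), and FANCL, the ubiquitin ligase subunit, was lower at -0.62 (adjusted p = 1.11e-08). FANCC and FANCG were lower by adjusted p with CoCl2 at -0.15 and -0.22, but their control and CoCl2 libraries overlapped.

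Of the 6 end resection genes 1 was called with CoCl2. This was the nuclease and helicase DNA2 (83.3 ± 4.5 CPM in control, 33.3 ± 1.3 with CoCl2 and 79.3 ± 1.5 with OD), at a log2 fold change of -1.33 (SE 0.057) with CoCl2 and -0.07 (adjusted p = 0.206) with OD. EXO1, the exonuclease that acts beside DNA2 and also in mismatch repair, was 36.5, 32.9 and 36.6 CPM in control, 25.6, 26.0 and 24.6 with CoCl2 and 38.4, 39.1 and 41.3 with OD. The 3 groups did not overlap, with CoCl2 lowest (-0.48, SE 0.066, adjusted p = 2.32e-09) and OD highest (0.16, SE 0.060, adjusted p = 0.0148). NBN and MRE11 belong to the complex that first binds a broken end. NBN was lower at -0.90 with CoCl2 (adjusted p = 2.29e-19) and -0.36 with OD (adjusted p = 6.05e-07), and MRE11 at -0.24 (adjusted p = 5.61e-05) and -0.14 (adjusted p = 0.0170). RAD50, the third subunit, stood at 0.03 (95% interval -0.21 to 0.26) with CoCl2, or -0.48 (adjusted p = 0.000324) under library size alone, and was lower at -0.36 with OD (adjusted p = 0.00527), with 76.9% of its exonic bases shared with a same-strand readthrough gene. RBBP8, the cofactor of MRE11, was lower at -0.34 (adjusted p = 1.65e-07) and -0.13 (adjusted p = 0.0322).

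In the complex that dissolves crossed strands without exchanging them, the stabilising subunit RMI2 had the lowest fold change of all 36 genes with CoCl2. The gene (chr16:11249619-11381662, plus strand, GRCh38) was at 26.8, 27.8 and 28.7 CPM in control, 6.22, 5.88 and 5.51 with CoCl2 and 27.2, 25.5 and 27.8 with OD. The CoCl2 libraries were far below the others, and control and OD libraries overlapped. The log2 fold change was -2.24 (SE 0.092, adjusted p = 3.60e-32) with CoCl2 and -0.05 (SE 0.067, adjusted p = 0.528) with OD. The helicase BLM was lower at -0.93 with CoCl2 and -0.29 with OD (adjusted p = 1.15e-15 and 0.000648), and RMI1 at -0.91 with CoCl2 (adjusted p = 3.72e-10), while with OD it stood at 0.01 (95% interval -0.18 to 0.21).

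Both damage kinases fell with CoCl2, and ATR, the kinase of stalled forks, was the 1 gene of the list called with OD. ATR (chr3:142449007-142578733, minus strand, GRCh38) was 30.4, 32.3 and 30.1 CPM in control, 10.2, 9.83 and 9.33 with CoCl2 and 11.9, 12.2 and 11.1 with OD. The highest treated library (12.2 CPM) was far below the lowest control library (30.1 CPM). The log2 fold changes were -1.66 (SE 0.082, adjusted p = 6.19e-28) with CoCl2 and -1.39 (SE 0.075, adjusted p = 2.71e-25) with OD. ATM, the kinase of double-strand breaks, was 58.8, 73.3 and 67.3 CPM in control, 19.4, 22.1 and 19.9 with CoCl2 and 57.3, 58.7 and 55.6 with OD. It was called with CoCl2 (-1.71, SE 0.069, adjusted p = 3.47e-31) and was lower with OD by a small amount (-0.22, SE 0.058, adjusted p = 0.000796).

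Of the mismatch repair genes, MSH6, which recognises single mispaired bases, was 142, 141 and 141 CPM in control, 115, 106 and 105 with CoCl2 and 106, 98.3 and 109 with OD. PMS2, the endonuclease subunit that nicks the new strand, was 21.2, 21.9 and 21.4 CPM in control, 18.2, 19.7 and 17.4 with CoCl2 and 16.4, 16.3 and 15.8 with OD. For both genes every treated library was below every control library. MSH6 was lower at -0.38 (SE 0.047, adjusted p = 8.57e-11) with CoCl2 and -0.43 (SE 0.046, adjusted p = 1.16e-12) with OD, and PMS2 at -0.23 (SE 0.077, adjusted p = 0.00453) and -0.41 (SE 0.074, adjusted p = 2.40e-06), so neither passed the fold threshold. PMS2 has 15 copies and pseudogenes named after it in the annotation, and its counts depend on how reads that fit several of them were treated.

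**Figure D3:**
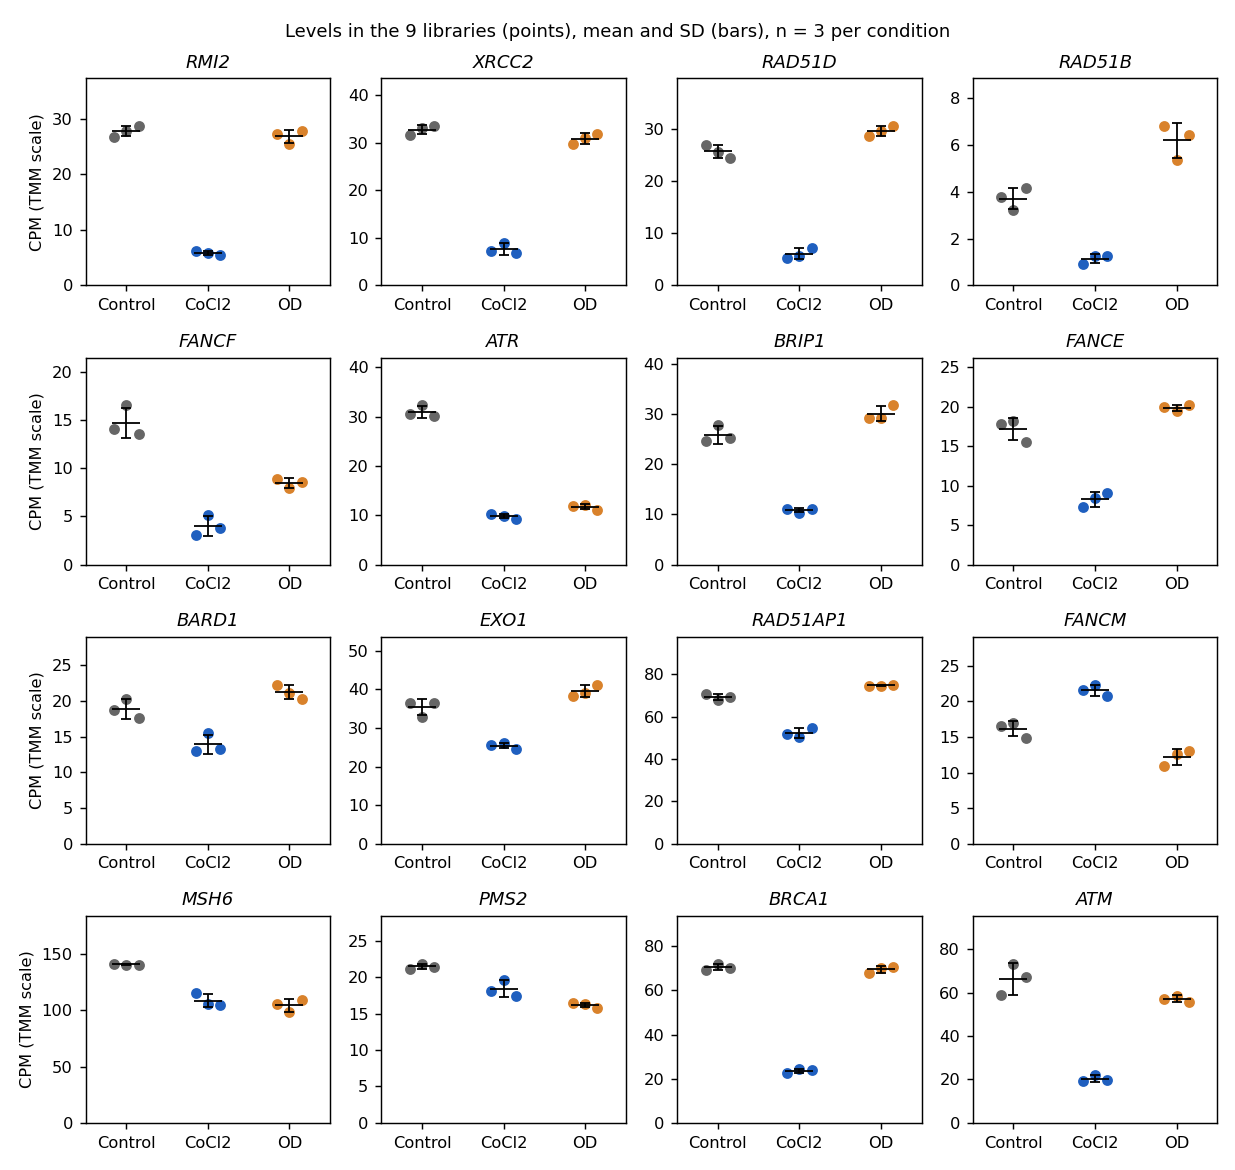
Levels of 16 genes in each library (y axis, CPM on the TMM scale, starting at 0) for control, CoCl2 and OD cells; points are the 3 libraries of a group, and black bars are the mean and SD. ATR is low with both treatments, FANCM is above control with CoCl2 (on this scale, not under library size alone) and below it with OD, and RMI2, XRCC2 and BRCA1 are low with CoCl2 while control and OD libraries lie close together.

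In all, 8 of the genes had opposite signs with the treatments while passing the adjusted p in both. In 7 of these (BARD1, BRIP1, RAD51B, RAD51D, RAD51AP1, FANCE and EXO1) mRNA was lower with CoCl2 and higher with OD, and in FANCM the reverse held. Both comparisons use the same control libraries, so their signs are not independent. The number of the 36 genes that were higher with OD by adjusted p also depended on the method. It was 8 here, 3 under DESeq2 on 9 libraries, 5 under DESeq2 on 6 libraries and 10 under upper-quartile factors. Under DESeq2 fewer than 8 genes thus had opposite signs past the adjusted p. The direct comparison of CoCl2 with OD does not use the control level, although its spread and scaling were estimated from all 9 libraries. It gave log2 fold changes of -2.43 (SE 0.19) for RAD51B, -2.27 (SE 0.093) for RAD51D and -1.47 (SE 0.080) for BRIP1. FANCE stood at -1.26 (SE 0.093) and FANCM at 0.83 (SE 0.083).

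In that direct comparison 13 of the 36 genes were called lower with CoCl2 and 0 higher, against 23.8% and 17.5% of all tested genes. By adjusted p alone 29 were lower (43.2% of all tested genes) and 3 were higher (40.2%), namely FANCM, RAD50 (0.39, adjusted p = 0.00262) and PMS2 (0.18, adjusted p = 0.0357), of which RAD50 and PMS2 turned negative under library size alone (-0.16 and -0.37). The median was -0.64, and that of all tested genes was -0.05. The 4 genes that did not pass were RAD54L (-0.12, 95% interval -0.27 to 0.02), FANCC (-0.01, -0.14 to 0.12), MRE11 (-0.10, -0.21 to 0.01) and MSH6 (0.06, -0.04 to 0.15, and -0.49 under library size alone). ATR was lower with CoCl2 than with OD by a small amount (-0.27, SE 0.094, adjusted p = 0.0073), and FANCF was called at -1.11, a call lost without CoCl2 replicate 1 (-0.96). The CoCl2 and OD concentrations were single and different, so these are differences between 2 exposures and not between equal doses.

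The ratio of the counts of 2 genes within a library was taken for 6 pairs, of which 5 join subunits of one complex and the last joins the kinases ATR and ATM. Such a ratio does not depend on library scaling. The pairs were chosen after their values were seen, and 3 libraries against 3 cannot give an exact permutation p under 0.1 (two-sided, 0.113 after adjustment over 18 comparisons), which is the p of each pair whose groups do not overlap. The log2 ratio of BRCA1 to BARD1 was 1.89, 1.83 and 2.00 in control libraries, 0.80, 0.66 and 0.86 with CoCl2 and 1.61, 1.72 and 1.80 with OD. The groups did not overlap, and the mean with CoCl2 was below that of control (difference -1.14). FANCI to FANCD2 was 1.10, 1.17 and 1.21 in control, 0.19, 0.40 and 0.24 with CoCl2 and 1.48, 1.55 and 1.49 with OD, so it was below control with CoCl2 (-0.88) and above with OD (0.34). RMI2 to BLM differed from control by -1.32 with CoCl2 and 0.23 with OD, again with no overlap. NBN to MRE11 was below control with both (-0.67 and -0.22).

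The ratio of ATR to ATM was -0.95, -1.19 and -1.16 in control, -0.92, -1.17 and -1.09 with CoCl2 and -2.26, -2.27 and -2.32 with OD. Control and CoCl2 libraries overlapped (mean difference 0.04, exact permutation p = 0.6), while the OD libraries lay below both (difference from control -1.19). RAD51B to RAD51C showed the same kind of split, with overlap between control and CoCl2 (difference -0.24, exact permutation p = 0.2) and OD libraries above both (difference from control 1.09).

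**Figure D4:**
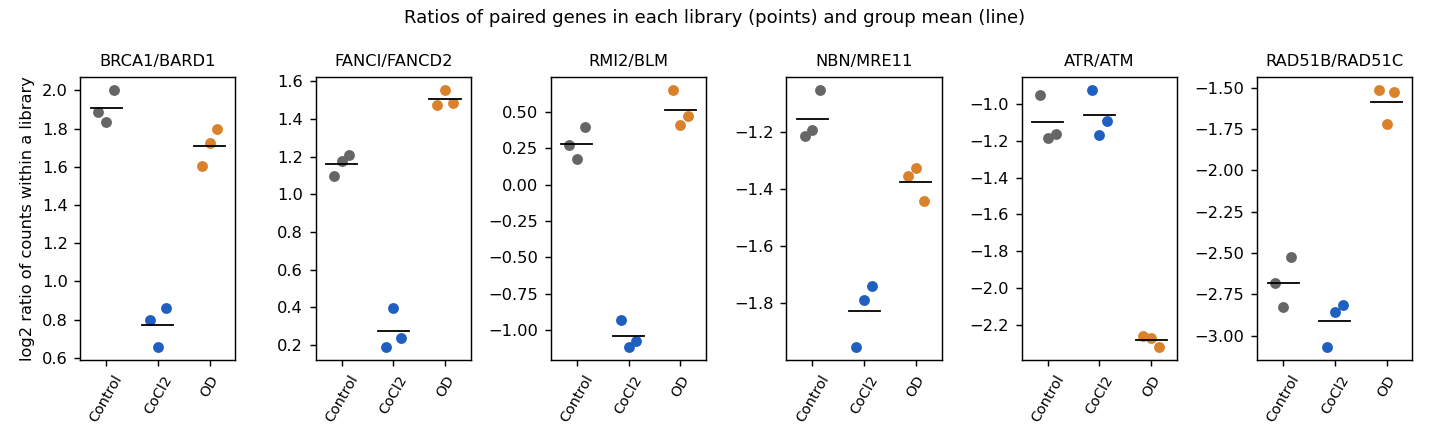
Log2 ratio of the counts of 2 paired genes within each library (y axis, a separate scale for each pair) for control, CoCl2 and OD cells; points are libraries and lines are group means, n = 3. The BRCA1/BARD1, FANCI/FANCD2 and RMI2/BLM ratios are lowest with CoCl2, and the ATR/ATM ratio is lowest with OD at -2.26 to -2.32.

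Other repair genes give the surroundings of the list. Among all tested genes, 23.4% were called lower and 19.9% higher with CoCl2, and 4.16% and 9.09% with OD. Of 39 other homologous recombination and Fanconi genes, 15 were called lower (38.5%) and 1 higher with CoCl2 (median -0.58), and 1 lower with OD (median -0.13). By adjusted p alone 24 were lower (61.5%) and 12 higher (30.8%) with CoCl2, against 42.8% and 40.4% of all tested genes. Some of the 12, such as TOP3A and MCM9, turned negative under library size alone (-0.18 and -0.21). FAAP100, a core complex partner, was at -2.34 and the BRCA1-A complex gene BABAM2 at -1.63 with CoCl2, while UIMC1 of the same BRCA1-A complex was called higher at 1.18 and WDR48, a cofactor of deubiquitinases, was higher at 0.80 (adjusted p = 7.76e-20). With OD the called gene was NUCKS1 at -1.17. All 3 other mismatch repair genes were lower with CoCl2 by adjusted p, with PMS1 at -2.24 and called, and 2 of 3 were lower with OD, with PMS1 at -0.63.

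Of 10 non-homologous end joining genes, 4 were called lower with CoCl2 (40%, against 23.4% of all tested genes) and 1 higher (median -0.37). By adjusted p alone 5 were lower and 2 higher. PAXX was at -1.48 and POLL at -1.23, while XRCC4 was higher at 0.91 (adjusted p = 6.75e-18) and NHEJ1, at means of 0.30 CPM in control and 0.85 with CoCl2, was called at 1.46. The break-binding pair XRCC6 and XRCC5 stood at -0.02 and 0.03 with CoCl2 (adjusted p = 0.717 and 0.516, with signs that depended on the scaling) and were lower with OD at -0.73 each (adjusted p = 4.49e-25 and 9.68e-26). Of 4 alternative end joining genes, 2 were called lower with CoCl2 (XRCC1 at -1.18 and PARP1 at -1.11) and 0 with OD. By adjusted p alone all 4 were lower with CoCl2. Among 12 genes of break signalling and end protection, 2 were called lower with CoCl2 (16.7%, below the 23.4% of all tested genes). These were ATRIP, the partner of ATR, at -2.13, and MAD2L2 at -1.37. SHLD1 was called higher at 1.20, and the median was 0.25 (-0.26 under library size alone). By adjusted p alone 7 of the 12 were higher and 5 lower. Some of the 7, such as TOPBP1 and RNF8, turned negative under library size alone (-0.25 and -0.27). With OD 0 of these 12 were called, and the median was -0.26.

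Proliferation markers moved with both treatments, and their part in the changes of the repair genes was not tested. Summed over 9 genes they were 2380 to 2450 CPM in control libraries, 1780 to 1910 with CoCl2 and 1550 to 1590 with OD, and under library size alone 2650 to 2730, 1410 to 1460 and 1760 to 1820 CPM. Which treatment had the lower sum thus depended on the scaling. By the median of the 9 log2 fold changes they stood at -0.66 (CoCl2) and -0.25 (OD). With CoCl2 3 of the 9 were called lower (33.3%, against 23.4% of all tested genes), with TOP2A at -2.13 and E2F1 at -1.68. MKI67 was higher at 0.45 (adjusted p = 1.27e-15) and PCNA at 0.13, both of which turned negative under library size alone (-0.06 and -0.37). With OD 2 were called lower (22.2%, against 4.16% of all tested genes), CCNB1 at -1.60 and TOP2A at -1.22. CCNE2 was higher with OD at 0.84 and E2F1 at 0.18 (adjusted p = 0.00144). The median log2 fold change of the 7 repair genes with E2F letters in the promoter was -0.44 with CoCl2 and -0.14 with OD. That of the 24 without them was -0.90 and -0.08. For the hypoxia response letters the medians were -0.46 and -0.14 in the 25 genes with them, and -1.09 and 0.07 in the 6 without. A link between letters and changes was not tested.

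**Figure D5:**
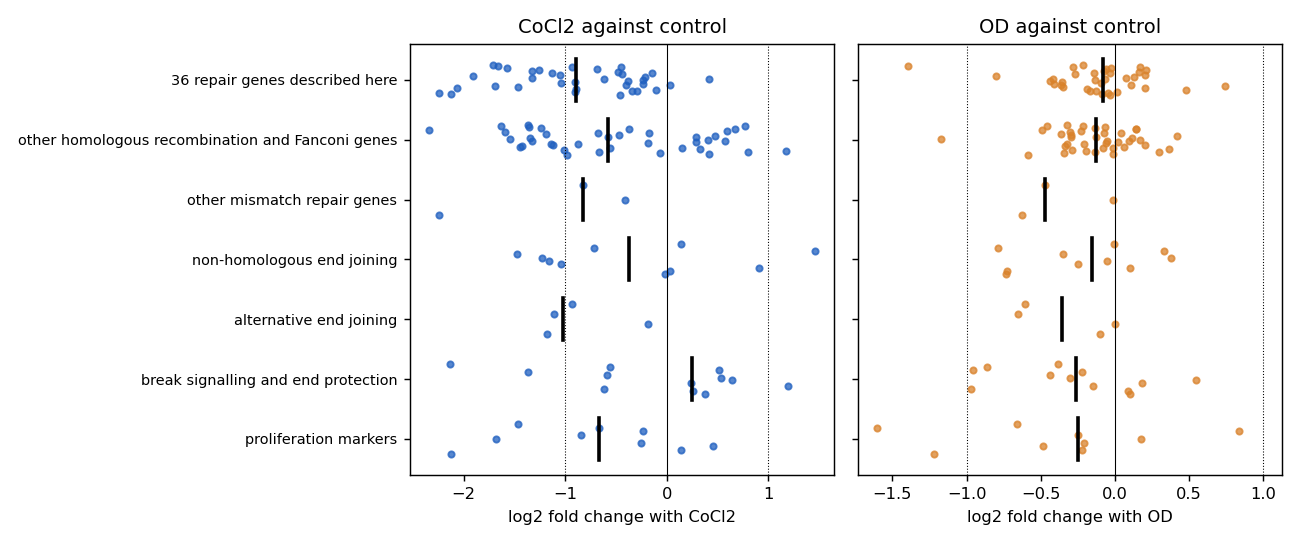
Log2 fold change (x axis) of the genes of 7 lists (rows) with CoCl2 (left) and OD (right); each point is a gene, black bars are list medians, and dotted lines mark a log2 fold change of 1 in either direction. With CoCl2 the median is -0.90 for the 36 repair genes, -0.58 for other recombination and Fanconi genes, -0.66 for the proliferation markers and 0.25 for break signalling (-0.26 under library size alone), and with OD the medians of the 36 genes and of the proliferation markers are -0.08 and -0.25.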

How the data were processed

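The deposited values are raw counts per gene symbol in 9 libraries. According to the methods and labels, single-end 75-nucleotide reads of stranded mRNA libraries were checked with FastQC 0.11.9, trimmed with cutadapt 2.10, mapped on GRCh38.p13 with STAR 2.7.5b and counted on GENCODE genes by the authors. Which program counted, with what strand setting, and how it treated reads matching more than 1 gene is not given in the sources used here.

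Library factors (TMM) and tests were computed with edgeR 4.0.16 (R 4.3.3). After filterByExpr, 15944 of 60591 symbols remained, and all 9 libraries entered 1 robust quasi-likelihood fit with 3 comparisons, each adjusted by Benjamini-Hochberg. A gene was called at a log2 fold change beyond 1 with adjusted p below 0.05. The authors tested with DESeq2 at the same thresholds, and DESeq2 1.42.0 was an alternative here, beside other scalings, filters, limits and omitted libraries. The scripts were checked on simulated counts. Every chi-square per degree of freedom between libraries of a group was 1.82 or more, so no library was a copy of another. All columns were mapped to samples, and 0 were unused. Coordinates, exon overlaps and transcript lengths came from GENCODE 44 (GRCh38), where all 36 symbols matched, and promoters from RefSeq (GRCh38.p14).

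The genes, roles, lists and tests were chosen with earlier results of these data known, and the gene pairs and neighbouring genes after their values were seen. Values in every library are given for 14 genes under a written rule, which names the 4 largest called rises and falls per comparison, genes of opposite sign past the adjusted p in both treatments, MSH6 and PMS2. BRCA1 and ATM were added after their values were seen.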

Additional observations from a re-analysis of the deposited data

How the results depend on the processing

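No count of called genes moved by over 1.5 times under DESeq2, RLE or upper-quartile factors, either count filter, thinning, separate fits of 6 libraries, a test against the fold threshold or any omitted library, except that scaling by library size alone called 24 genes lower in CoCl2 against OD (13 before). Without the fold threshold the counts were 33 lower and 1 higher (CoCl2), 16 and 8 (OD), and 29 and 3 (CoCl2 against OD). For OD they were 10 and 3 under DESeq2 on 9 libraries, 10 and 5 under DESeq2 on 6 libraries and 11 and 10 under upper-quartile factors. The test against the fold threshold (edgeR's glmTreat) did not call PALB2 (adjusted p = 0.333) or FANCE (0.301) with CoCl2. In CoCl2 against OD it did not call RAD51C (0.0978) or FANCF (0.224). Replicate numbers did not pair the libraries (correlations of deviations -0.00 to 0.04 over 9 same-number pairs), and with the replicate block the medians were -0.896, -0.0789 and -0.634, with no call changed.

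The median for CoCl2 was -0.847 under RLE, -0.998 under upper-quartile and -1.40 under library size alone, -0.963 without a filter, and -0.932 to -0.850 without single libraries. For OD it was -0.0394 under library size alone and -0.0984 to -0.0683 without single libraries. For CoCl2 against OD it was -0.593 under RLE, -0.768 under upper-quartile, -1.18 under library size alone, -0.702 without a filter, -0.690 with at least 10 counts in every library and -0.688 to -0.612 without single libraries. Library size alone moved the median of all genes to -0.554 (CoCl2) and -0.598 (CoCl2 against OD). Relative to it the median of the repair genes was -0.85 and -0.584, and under TMM -0.849 and -0.583. A change of factors shifts all genes by about the same amount. These differences are thus nearly fixed in advance and are not a check on the result.

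Some values changed sign, most of them near 0 on the TMM scale. Further from 0 were FANCM with CoCl2 (0.41) and, in CoCl2 against OD, RAD50 (0.39) and PMS2 (0.18). After the flip under library size alone, RAD50 with CoCl2 passed the adjusted p, as did MSH6 and PMS2 in CoCl2 against OD. With CoCl2, RAD50 was -0.0737 under upper-quartile, -0.479 under library size alone, -0.0379 without a filter, -0.00242 with at least 10 counts and -0.0669 to 0.0886 without single libraries; FANCM was -0.0953 under library size alone; RAD54B was -0.280 to 0.00885 without single libraries. With OD, BRCA1 was 0.00808 under upper-quartile, 0.017 under library size alone and 0.00133 with at least 10 counts, FANCA 0.00102, 0.00993 and, without single libraries, -0.0567 to 0.00241, XRCC3 0.00559 under library size alone, RMI1 -0.0714 to 0.0910 and BRCA2 -0.163 to 0.0680 without single libraries. In CoCl2 against OD, FANCC was 0.0343 under RLE and -0.0550 to 0.0177 without single libraries, MSH6 -0.075 under upper-quartile, -0.490 under library size alone and -0.00989 without a filter, and under library size alone RAD50 was -0.157 and PMS2 -0.370. The log2 ratio ATR/ATM (CoCl2) ranged from -0.0313 to 0.113 without single libraries. With CoCl2 and in CoCl2 against OD, the flips under library size alone came with the shift of the median of all genes given above. The cause of the other flips was not tested.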

Other observations

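Many repair genes start back to back with another gene. By canonical transcripts of GENCODE 44, 16 of the 36 genes (44.4%) have the start of another gene on the opposite strand within 1000 bases upstream, against 24.3% of 14136 tested genes. Of the 33 repair genes that were lower with CoCl2 by adjusted p, 9 have such a neighbour that was tested. In 7 of these 9 the neighbour was higher and in 2 it was lower, while among all tested genes that were lower and have a tested neighbour, 305 of 869 neighbours (35.1%) were higher. Of the 16 repair genes that were lower with OD, 4 have a tested neighbour, and 1 of these was higher, 1 lower and 2 did not pass. Among all tested genes 141 of 883 such neighbours (16%) were higher with OD. The CoCl2 count depends on the scaling, with 7 higher under RLE, 5 under upper-quartile factors and 3 (with 4 lower) under library size alone. Shares among all tested genes were taken on the TMM scale only. ATM, at -1.71, starts 429 bases from NPAT, a histone gene activator that was higher at 1.15 (adjusted p = 1.56e-29, edgeR). PALB2, at -1.04, starts 156 bases from DCTN5, a dynactin subunit that was higher at 0.78 (adjusted p = 1.10e-25). The neighbours of RAD51C, XRCC3, RAD51AP1, MRE11 and RMI1 were higher at 2.63 (TEX14), 0.53 (ZFYVE21), 0.63 (C12orf4), 0.18 (ANKRD49) and 0.11 (HNRNPK), and ANKRD49 and HNRNPK turned negative under library size alone (-0.32 and -0.39).

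The exceptions were BRCA1 and PMS2. NBR2, a long noncoding RNA that starts 187 bases from BRCA1, was lower with CoCl2 at -0.74 (adjusted p = 9.70e-06) and higher with OD at 0.91 (adjusted p = 1.21e-10), where BRCA1 stood at -0.02. AIMP2, which starts 223 bases from PMS2 and encodes a scaffold of the tRNA synthetase complex, was lower at -1.504 with CoCl2 and -0.70 with OD, further than PMS2 itself in both. These pairs were looked up after the values of the repair genes were seen, and the numbers are descriptions of this list.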
